A study of Mus musculus with 42 samples.

Results

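The comparison set 24 h against 6 h of culture without IL-21 in trNK-V cells, a subgroup of tissue-resident natural killer (trNK) cells of the pregnant mouse uterus. It used 4 bulk RNA-Seq libraries, 2 at each time, chosen by their labels from a time course of 16 libraries in a series of 42 samples, and every expressed gene was read. The cells were sorted from the uterus of wild-type C57BL/6 females at gestation day 6.5, aged 8 to 12 weeks by the study's methods, and kept in RPMI medium with 10% FBS and the cytokine IL-15. The label of each sample gives IL-15 at 10 ng/ml, whereas the treatment protocol gives 15 ng/ml. The parallel cultures also received IL-21 at 20 ng/ml. The gate took live CD45+ cells that carried NKp46, NK1.1 and CD49a and lacked lineage markers and CXCR6, and the V subgroup was 4-1BB low and CD55 low. No label says whether the 2 libraries of a group came from separate animals or cultures, so the p-values measure only the spread between these libraries. In bulk samples fewer cells of a type and less RNA per cell cannot be told apart.

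Uterine NK cells gather at the implantation site in early pregnancy, secrete cytokines and growth factors there, and hold granules of perforin and granzymes. Their receptors are mostly C-type lectins encoded side by side in the NK gene complex, and several of them signal through the adaptors DAP10 and DAP12. IL-15 keeps NK cells alive and dividing through the shared beta and gamma receptor chains, the kinases JAK1 and JAK3, and STAT5. The question of the comparison was how the cells changed between 6 h and 24 h of such a culture.

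The 6 h libraries held 61203086 and 66468883 counts and the 24 h libraries 30328290 and 42878924. Mitochondrial transcripts made up 3.57% and 3.78% of the counts at 6 h and 4.76% and 4.58% at 24 h, more in both later libraries. Levels below are RPKM, counts scaled by gene length and by a TMM-adjusted library size, and changes are log2 values of 24 h minus 6 h. Of the 54446 genes listed, 3503 exceeded 10 RPKM in both libraries of at least 1 of the 8 groups and were tested. The replicates lay over 2-fold apart in 156 of these genes at 6 h and in 140 at 24 h. In the 72 h groups 1075 genes without IL-21 and 1007 with IL-21 lay that far apart. The fit across all 16 libraries shared 1 estimate of the spread per gene over these groups.

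**Figure D1:**
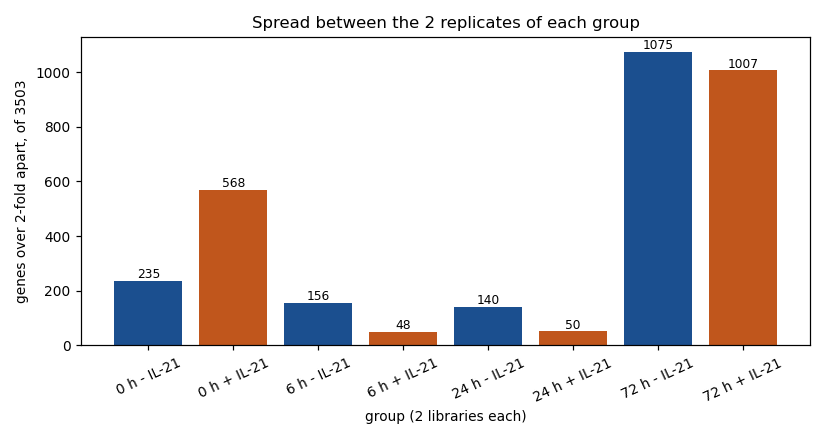
Bars give the number of the tested genes whose 2 replicates differed by more than 2-fold, for each of the 8 groups of 2 libraries, in blue without and in orange with IL-21. The 6 h and 24 h groups without IL-21 stood at 156 and 140 genes, and the 72 h groups at 1075 and 1007.

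The labelled cell type was checked on its markers. Of 8 trNK markers 6 were tested, 4 higher and 2 lower at 24 h. Ncr1 (NKp46) stood at 848 and 836 RPKM at 6 h and at 1020 and 934 at 24 h. Eomes was at 11.6 and 13.6 RPKM at 6 h and 11.4 and 13.6 at 24 h, and Il2rb at 44 and 33.2 and then 35.7 and 29.8. Tbx21 stayed under the filter, with 0.285 and 0.626 RPKM at 6 h and 0.0525 and 1.44 at 24 h. Itga1, which encodes the sorted CD49a, stayed under the filter with 3.6 and 5.07 RPKM at 6 h and 6.4 and 4.94 at 24 h. Cxcr6, whose product the gate excluded, was listed at 22.4 and 13.3 RPKM at 6 h and 14.7 and 39.3 at 24 h. Markers of neutrophils, decidual stroma and red cells were nearly absent, with summed levels of at most 0.0311, 0.191 and 0.147 RPKM in any of the 4 libraries. Of 10 macrophage markers 6 had no count in the 4 libraries, among them Adgre1 and the C1q genes, while Cd68 was at 20.8 and 27.2 RPKM at 6 h and 38 and 70.8 at 24 h. Of 10 T cell markers, Trbc1, Trbc2, Cd3g, Cd3d and Trac were present, and Cd3e, Cd4, Cd5, Cd8a and Cd8b1 stayed under 1 RPKM. The T cell list summed to 1305 and 1330 RPKM at 6 h and 1539 and 1699 at 24 h. The list for conventional NK cells and ILC1, which includes Cxcr6, summed to 34.2 and 22.7 RPKM at 6 h and 27.4 and 51 at 24 h. Mast cell markers summed to 1.56 and 5.8 and then 8.95 and 4.42 RPKM. Of 8 B cell markers only Ighm was tested, with 213 and 155 RPKM summed over the list at 6 h and 155 and 150.2 at 24 h. The endothelial list reached at most 7.65 RPKM, nearly all from Pecam1, and the epithelial list at most 15.4, from Epcam and Cdh1. The part of these markers in the results below was not tested.

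In all, 3 genes rose from 6 h to 24 h and none fell when the 16 libraries shared the fit. The genes were Cd7, Emb and Clk1, 0.0856% of those tested, against 0% for falls (edgeR's quasi-likelihood test, adjusted p under 0.05 and over 2-fold). At an unadjusted p under 0.05 the same fit held 138 genes higher and 59 lower. DESeq2 called 10 higher and 3 lower, and limma with voom 3 and 0. No gene was called in this fit when any 1 of the 4 libraries compared was left out.

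Cd7 (ENSMUSG00000025163) encodes an immunoglobulin-family receptor carried by NK and T cells, and lies on the minus strand at chr11:121036747-121039418 (mm10). It stood at 398 and 366 RPKM at 6 h and at 1496 and 1539 at 24 h. The 24 h libraries were close to each other and far above both 6 h libraries. The log2 change was 1.99 ± 0.22 (SE), with an adjusted p of 0.00457 by edgeR. Before culture the level was 405 and 446 RPKM, and at 72 h it was 2165 and 1551. With IL-21 the gene stood at 97.9 and 109 RPKM at 6 h and 179.7 and 179.5 at 24 h, below every library without IL-21.

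Emb (ENSMUSG00000021728) encodes embigin, a membrane glycoprotein that accompanies monocarboxylate transporters, and lies on the plus strand at chr13:117208536-117274415. Its level was 29.6 and 34.7 RPKM at 6 h and 84 and 78.8 at 24 h, with no overlap. The log2 change was 1.34 ± 0.15 (SE, adjusted p = 0.00457 by edgeR). The levels were 35.1 and 39.5 RPKM at 0 h and 82.8 and 90.8 at 72 h, so the 24 h libraries lay near those at 72 h.

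Clk1 (ENSMUSG00000026034) encodes a kinase of SR splicing factors, and lies on the minus strand at chr1:58410189-58424066. It stood at 21.9 and 20.4 RPKM at 6 h and at 49.1 and 64.1 at 24 h, and both 24 h libraries were above the 6 h pair. The log2 change was 1.42 ± 0.20 (SE, adjusted p = 0.0238 by edgeR). It was at 30.3 and 35.5 RPKM at 0 h and at 146 and 172 at 72 h, beyond its 24 h level. Leaving out 1 of the 4 libraries kept the change between 1.93 and 2.05 for Cd7, 1.23 and 1.46 for Emb and 1.20 and 1.60 for Clk1, while the adjusted p-values then lay between 0.0549 and 0.474.

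**Figure D2:**
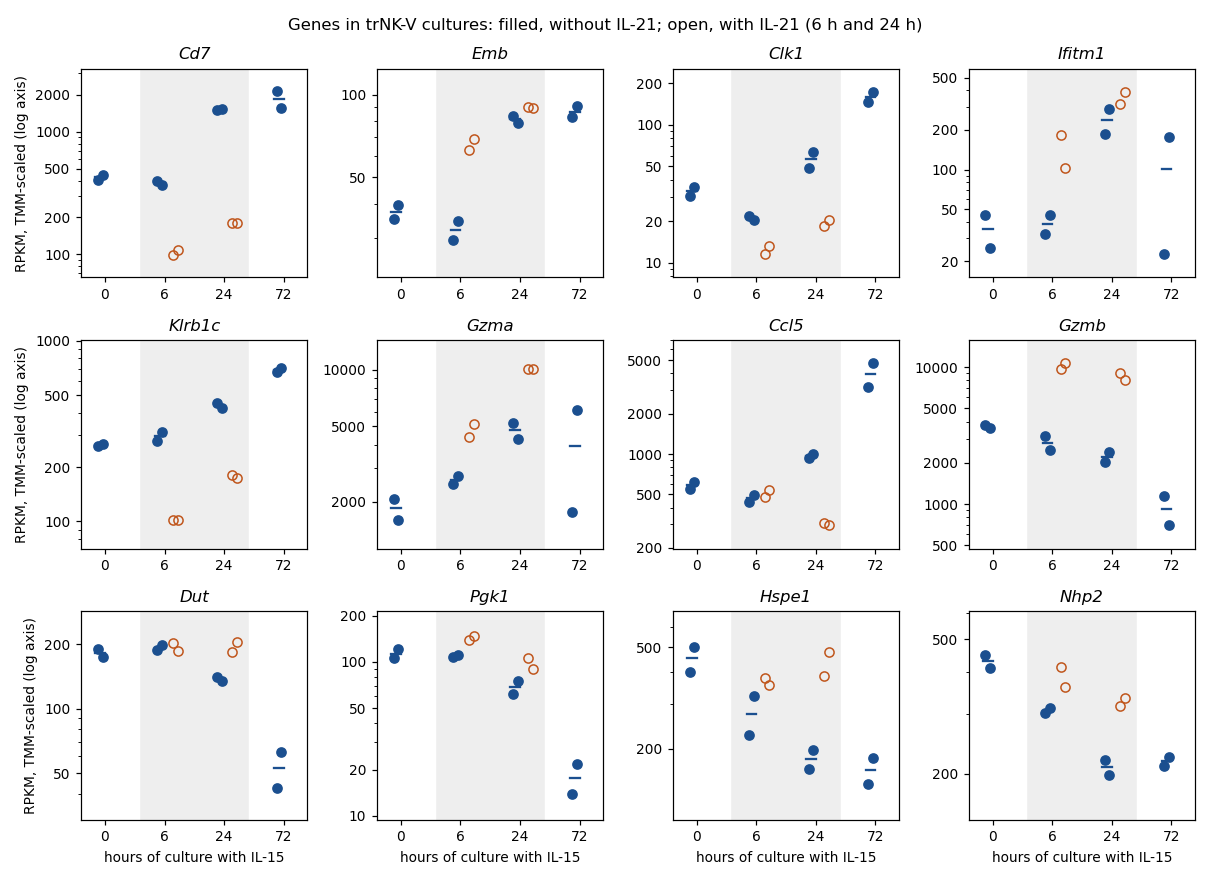
Each panel shows 1 gene, with hours of culture on the x axis and TMM-scaled RPKM on a log y axis. Filled points are the 2 libraries without IL-21 with their mean as a bar, open points are the libraries with IL-21 at 6 h and 24 h, and the grey band marks the times compared. Cd7 stood at 398 and 366 RPKM at 6 h and 1496 and 1539 at 24 h without IL-21, and Pgk1 at 108 and 110.2 and then 61.8 and 75.4.

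With the fit made on the 8 libraries at 6 h and 24 h alone, an alternative chosen after seeing the data, 29 genes passed as higher and 33 as lower, 0.828% and 0.942% of those tested. The planned fit on only the 4 libraries compared gave fewer, 11 higher and 2 lower. In the 8-library fit Cd7, Emb and Clk1 were among the genes called, with adjusted p-values of 2.8e-05, 0.000926 and 0.00183 by edgeR. With 1 of the 4 libraries compared left out, the log2 change in this fit lay between 1.94 and 2.05 for Cd7. It lay between 1.23 and 1.47 for Emb and between 1.22 and 1.61 for Clk1. Of the genes called in the 8-library fit, 2 of the higher and 10 of the lower had not exceeded the filter in either group compared. They entered through other groups. Some others exceeded it at only 1 of the times compared, the one where they were higher. Zfp512, Nmrk1 and some predicted genes did so at 24 h. At 6 h they were Sh2d2a, Hist1h2bk, Bnip2, Fabp5, Wdr55, Ints11, Cdca7l, Creb3, Eef1akmt4, Gps1, Oma1, Ppic, Rpn2 and Vdac1. The filter thus favoured the direction found for these genes, and their p-values are no support for it. The counts of genes called in the 8-library fit moved on leaving out a library. They were 7 higher and 10 lower without the 24 h replicate 2, and 55 and 115 without the 6 h replicate 2. Without the 6 h replicate 1 they were 28 and 15. With the 12 libraries at 0, 6 and 24 h, 4 were higher and 0 lower.

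**Figure D3:**
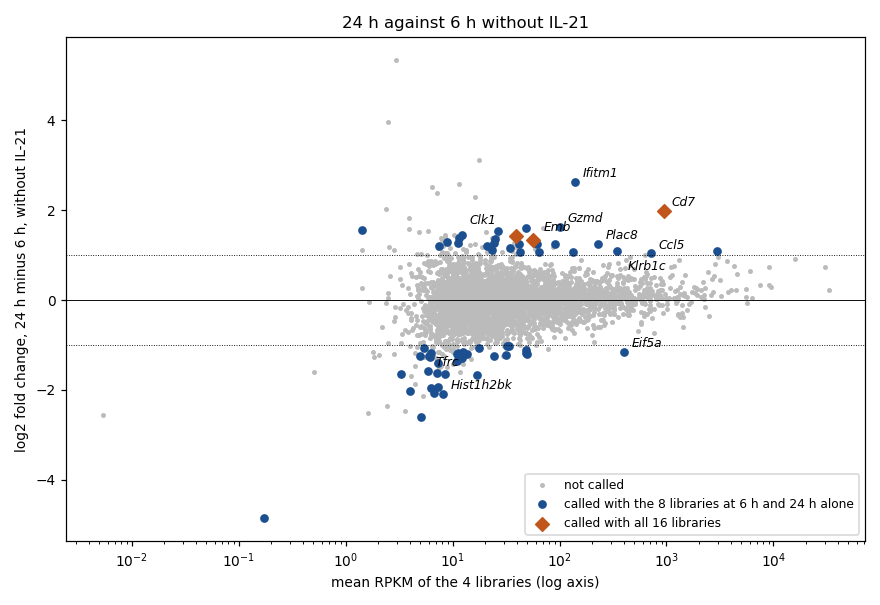
Each point is 1 of the tested genes, with the mean RPKM of the 4 libraries on a log x axis and the log2 change of 24 h minus 6 h on the y axis (dotted lines, 2-fold). Orange diamonds are the 3 genes called with all 16 libraries, blue points those called only with the 8 libraries at 6 h and 24 h, and 1 gene lies above the axis.

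Of the genes tested, 25.1% had both 24 h libraries above both 6 h libraries and 24.7% had both below. These shares are the background for the gene groups. The median log2 change over all genes was -0.0048, with 1736 higher and 1767 lower. No other gene passed this comparison across all 16 libraries, and from here on a gene said to have passed did so in the 8-library fit. Besides the members chosen by the rule given with the methods, some were picked after their values were seen to show the spread of a group.

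NK receptors and their adaptors lay higher almost throughout. Of 31 listed genes 29 were tested, 28 were higher at 24 h, and 26 had both 24 h libraries above both at 6 h while 0 had both below. The median log2 change was 0.51, and the members ranged from -0.06 to 1.25. In 6 of the 29 the first 6 h library was above the second. Klra6 passed in the 8-library fit. Many of these genes have near-identical neighbours, so single Klra and Klrb1 values are uncertain. The members counted may for the same reason not be independent.

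Klrb1c, which encodes the NK1.1 antigen used in the sort, stood at 277 and 314 RPKM at 6 h and at 449.6 and 423 at 24 h. The times did not overlap, and the log2 change was 0.56 ± 0.14 (SE) with an adjusted p of 0.547. Klrb1b, an inhibitory relative that binds Clr-b, was at 22.9 and 24.4 RPKM at 6 h and 49.7 and 41.4 at 24 h, a log2 change of 0.94. Klra6, of the Ly49 receptor family, stood at 22.5 and 26.9 RPKM at 6 h and at 63.3 and 53.6 at 24 h. Both adaptors were higher at 24 h in both libraries. Tyrobp (DAP12) was at 6368 and 7437 RPKM at 6 h and 11220 and 11590 at 24 h. Hcst (DAP10) was at 390.3 and 444 RPKM at 6 h and 829.9 and 828 at 24 h, a log2 change of 0.99. Cd244a, Klra5 and Klra10 overlapped between the times. The median over the group was -0.05 and 0.07 in the 0 h libraries relative to the 6 h mean, 0.57 and 0.47 at 24 h and 1.18 and 1.38 at 72 h, on the log2 scale.

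The Klrb1c promoter is shown as that of the group member of smallest p whose window holds the RUNX core. All promoter windows run from 250 bases before to 50 after the RefSeq start in build GRCm38.p6, 5′ to 3′ along the gene, with the motif in capitals. Matches were sought on both strands and describe letters, not binding. Each list was searched only for textbook motifs of its known regulators. The shares therefore describe the lists and not the change from 6 h to 24 h.
Klrb1c promoter, chr6:128788592-128788891, minus strand: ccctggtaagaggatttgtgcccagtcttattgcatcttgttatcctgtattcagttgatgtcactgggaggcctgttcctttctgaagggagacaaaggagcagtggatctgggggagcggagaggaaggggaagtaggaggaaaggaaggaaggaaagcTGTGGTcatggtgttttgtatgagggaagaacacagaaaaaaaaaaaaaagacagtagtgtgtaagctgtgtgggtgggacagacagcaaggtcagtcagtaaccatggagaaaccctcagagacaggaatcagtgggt
The core TGTGGT stood in 11 of the 24 windows of NK receptor genes (45.8%), against 16.9% of all 27025 promoters and 15.2% of those of tested genes. As many of these genes have near-identical neighbours, the 24 windows may not be independent. TTCNNNGAA, the STAT motif, stood in 4 (16.7%) against 8.47% and 7.18%, and AGGTGTGA, a T-box motif, in none against 1.27% and 0.754%.

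Klrb1, outside that list, was at 16.2 and 11.3 RPKM at 6 h and 31.8 and 47.7 at 24 h, with no overlap. It stood at 9.02 and 8.21 RPKM at 0 h and 70.0 and 124 at 72 h. Its log2 change of 1.54 passed in the 8-library fit (adjusted p = 0.034).

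Of 23 cytolytic granule genes listed, 15 were tested, with 10 higher, 8 of them without overlap, 5 lower, 2 of them without overlap, and a median of 0.22. Gzmd, a granzyme of uterine NK cells, was at 46.7 and 52.4 RPKM at 6 h and 170.5 and 136 at 24 h, and passed in the 8-library fit (adjusted p = 0.000921). Gzmc stood at 1861 and 2255 RPKM at 6 h and 3403 and 4577 at 24 h, a log2 change of 0.96 ± 0.26 (SE, adjusted p = 0.547 by edgeR). Gzma, the tryptase of the granules, was at 2478 and 2745 RPKM at 6 h and 5243 and 4296 at 24 h (adjusted p = 0.961 by edgeR). These genes were higher in both 24 h libraries. Gzmb, the granzyme that activates caspases, was at 3150 and 2475 RPKM at 6 h and 2030 and 2386 at 24 h, lower by a narrow margin. Prf1 (perforin) stood at 17.9 and 11.9 RPKM at 6 h and 11.8 and 12.6 at 24 h, and its libraries overlapped. Gzmc, Gzmd, Gzme and Gzmf are close copies of each other, which makes each value uncertain.

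Of a list of 10 genes taken from the study's text 7 were tested. Klrg1, an inhibitory receptor, was at 88.5 and 102 RPKM at 6 h and 121 and 125 at 24 h, with no overlap. Cd55, which encodes a complement regulator, was at 33 and 39.7 RPKM at 6 h and 51.4 and 39.5 at 24 h, and Tnfrsf9 (4-1BB) at 272 and 193 and then 246 and 279.5. Both of these sort markers overlapped between the times. Spp1, encoding osteopontin, was at 6075 and 6430 RPKM at 6 h and 6840 and 6080 at 24 h, also overlapping. Under the filter, Stat3 was at 1.3 and 1.73 RPKM at 6 h and 1.44 and 1.3 at 24 h, Il21r at 0.823 and 0.406 and then 0.697 and 0.781, and E2f5 at 3.1 and 1.68 and then 5.09 and 2.35.

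Secreted cytokines and chemokines had a median of 0.52 over 11 tested members of 25, with 10 of them higher and 4 higher without overlap. Ccl5 (RANTES) was at 443 and 497 RPKM at 6 h and 936 and 998 at 24 h, and passed in the 8-library fit (adjusted p = 0.00482). It had stood at 552 and 616 RPKM at 0 h and was at 3149 and 4741 at 72 h. Csf2, encoding GM-CSF, was at 7.62 and 13.6 RPKM at 6 h and 41.4 and 19.1 at 24 h, a log2 change of 1.51 ± 0.74 (SE, adjusted p = 0.898 by edgeR). Xcl1 (lymphotactin) overlapped, at 4685 and 6109 RPKM at 6 h and 5505 and 5802 at 24 h. Ifng and Ccl3 overlapped too, and Ccl9 and Il10 had no count in at least 1 library of each time. Over the alternatives the median of this list lay between -0.0014 and 0.68.

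DNA replication genes lay lower. Of 51 listed genes 30 were tested, all 30 had negative log2 changes, 22 of them without overlap, and the median was -0.49. In the 8-library fit 29 of them were negative, Rpa3 being the exception, and none was called in either fit. Dut, which keeps uracil out of DNA, stood at 188 and 197 RPKM at 6 h and 140.1 and 134 at 24 h (adjusted p = 0.83 by edgeR). Gins2, of the replicative helicase, was at 20.3 and 18.2 RPKM at 6 h and 11.6 and 8.78 at 24 h, a log2 change of -0.92 ± 0.42 (SE, adjusted p = 0.868 by edgeR). Rrm2, the small subunit of ribonucleotide reductase, was at 93.2 and 72.2 RPKM at 6 h and 52.5 and 41.6 at 24 h. In these genes both 24 h libraries were below both 6 h libraries. The median over the group was -0.38 and -0.53 in the 24 h libraries relative to the 6 h mean and -4.04 and -3.59 at 72 h, on the log2 scale.

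Rfc4, which helps load the sliding clamp, is the replication gene of smallest p whose window holds an E2F motif. It was at 155 and 172 RPKM at 6 h and 127 and 110 at 24 h, lower in both.
Rfc4 promoter, chr16:23127681-23127980, minus strand: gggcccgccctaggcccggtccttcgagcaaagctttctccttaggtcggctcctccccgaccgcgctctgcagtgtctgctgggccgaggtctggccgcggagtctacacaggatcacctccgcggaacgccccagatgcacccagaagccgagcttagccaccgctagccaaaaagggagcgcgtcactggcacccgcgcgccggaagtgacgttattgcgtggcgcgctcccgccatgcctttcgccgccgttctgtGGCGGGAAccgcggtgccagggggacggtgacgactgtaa
The forms searched, TTTGGCGC or TTCCCGCC, stood in 7 of 23 replication windows (30.4%) against 2.75% of all promoters and 5.91% of those of tested genes.

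Mitotic genes did not lie with the replication genes at 24 h. Of 40 listed, 22 were tested, 18 were higher and 4 lower, with a median of 0.23, and 9 were higher without overlap against 2 lower. The median lay between 0.12 and 0.31 over the alternatives, and in 4 of the 22 members the first 6 h library was above the second. Ccnb2, a B-type cyclin, was at 279.8 and 304 RPKM at 6 h and 429 and 392 at 24 h (adjusted p = 0.998 by edgeR). Aurkb, the kinase of the chromosomal passenger complex, lay on the other side, with 21.7 and 18.9 RPKM at 6 h and 13.5 and 10.3 at 24 h. The group median was -0.82 and -0.81 at 0 h relative to the 6 h mean, 0.30 and 0.19 at 24 h and -4.80 and -4.97 at 72 h, far below every earlier library.

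Cks2, a small partner of the cyclin-dependent kinases, was at 464 and 728 RPKM at 6 h and 824 and 842 at 24 h, and its window holds the CCAAT box, in either orientation, at 4 places.
Cks2 promoter, chr13:51644982-51645281, plus strand: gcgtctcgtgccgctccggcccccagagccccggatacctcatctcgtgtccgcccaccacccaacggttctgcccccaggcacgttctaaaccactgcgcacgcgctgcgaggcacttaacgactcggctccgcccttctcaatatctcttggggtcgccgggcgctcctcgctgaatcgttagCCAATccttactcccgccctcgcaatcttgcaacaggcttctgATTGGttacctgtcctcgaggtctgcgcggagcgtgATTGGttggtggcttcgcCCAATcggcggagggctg
CCAAT stood in 14 of 19 mitotic windows (73.7%) against 37.9% of all promoters and 41.8% of those of tested genes.

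**Figure D4:**
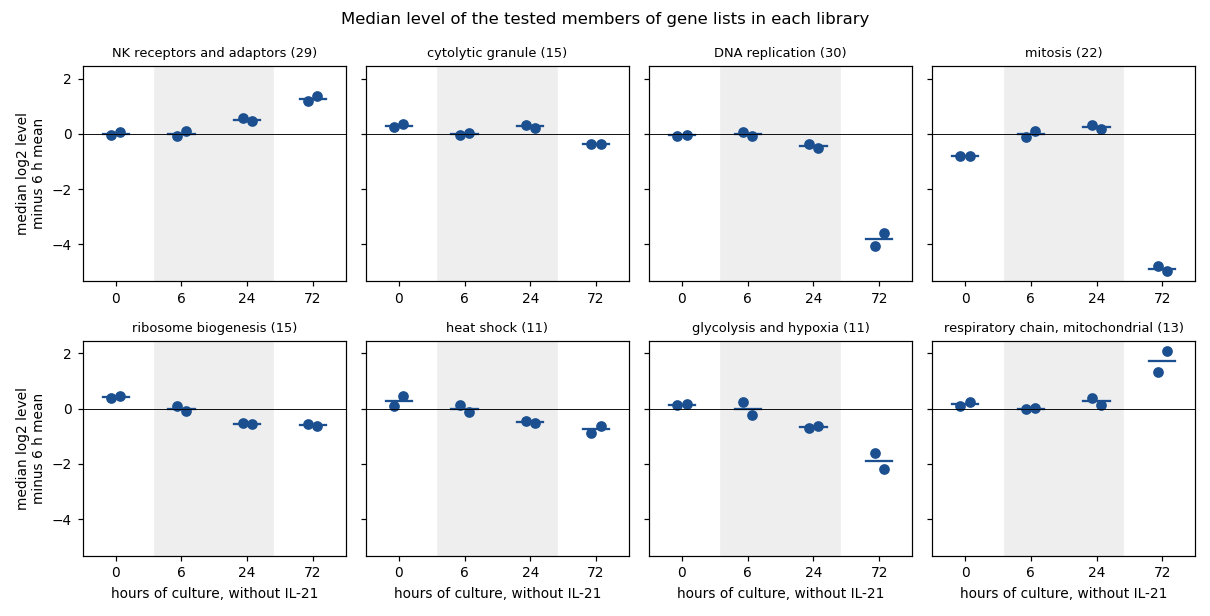
Each panel shows 1 gene list, with its number of tested members in brackets, hours of culture without IL-21 on the x axis and, on the y axis, the median over members of the log2 level minus the 6 h mean. Points are single libraries and bars their mean. The replication genes were at -0.38 and -0.53 at 24 h and the mitotic genes at 0.30 and 0.19.

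Genes of ribosome assembly were lower at 24 h. Of 44 listed, 15 were tested and 14 were lower, 13 of them without overlap, with a median of -0.57. Nhp2, of the box H/ACA particle, was at 302 and 313 RPKM at 6 h and 219.8 and 198 at 24 h (adjusted p = 0.82 by edgeR), and Gnl3 (nucleostemin) at 12.6 and 12.7 and then 7.34 and 9.47. Both were lower in both 24 h libraries. Myc, a transcription factor known to drive ribosome assembly genes, was at 21.3 and 12.8 RPKM at 6 h and 12.1 and 8.42 at 24 h, so that the lower 6 h library nearly met the higher 24 h library (adjusted p = 0.998 by edgeR). CACGTG, the E-box that MYC binds, stood in 1 of 13 windows of this list (7.69%) against 7.24% of all promoters and 11.2% of those of tested genes. The cytosolic ribosomal proteins themselves were near 0, with 48 higher and 28 lower of 76 tested, 8 and 10 without overlap, and a median of 0.05.

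Heat shock genes were lower in 10 of 11 tested members of 18, 7 without overlap, with a median of -0.57. In 8 of the 11 the first 6 h library was above the second. Hsp90ab1, a cytosolic chaperone, was at 122 and 98.8 RPKM at 6 h and 65.7 and 76 at 24 h. Hspe1, the mitochondrial cochaperonin, was at 226 and 323 RPKM at 6 h and 167 and 197 at 24 h. Neither overlapped between the times, and their adjusted p-values were 0.868 and 0.841. The Hspe1 promoter is shown for its heat shock element, GAANNTTC.
Hspe1 promoter, chr1:55087898-55088197, plus strand: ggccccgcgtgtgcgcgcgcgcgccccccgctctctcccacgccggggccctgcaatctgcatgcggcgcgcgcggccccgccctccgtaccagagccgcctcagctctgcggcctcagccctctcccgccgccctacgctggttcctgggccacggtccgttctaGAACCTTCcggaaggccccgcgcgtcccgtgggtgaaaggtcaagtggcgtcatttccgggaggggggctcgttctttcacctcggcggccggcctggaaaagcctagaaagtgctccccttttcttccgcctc
This motif stood in 3 of 8 heat shock windows (37.5%) against 7.95% of all promoters and 6.11% of those of tested genes. Chaperones of the endoplasmic reticulum were lower in 13 of 19 tested genes, 7 of them without overlap, with a median of -0.24 that lay between -0.64 and -0.12 over the alternatives. Creld2, which aids folding there, was at 41.9 and 27.8 RPKM at 6 h and 24.4 and 14.2 at 24 h.

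Glycolysis and hypoxia genes had a median of -0.67. Of 29 listed, 11 were tested, 9 were lower, 7 of them without overlap, and 2 were higher, 1 of them without overlap. Pgk1, which makes ATP in glycolysis, was at 108 and 110.2 RPKM at 6 h and 61.8 and 75.4 at 24 h, a log2 change of -0.67 ± 0.25 (SE, adjusted p = 0.819 by edgeR). Gapdh, which makes NADH in the step before, stood at 141 and 71.2 RPKM at 6 h and 46.8 and 53.1 at 24 h. Ldha, a lactate dehydrogenase subunit, was at 178 and 112 RPKM at 6 h and 70.5 and 90.0 at 24 h. All of these were lower in both 24 h libraries, but the 6 h replicates of Gapdh and Ldha stood far apart. In this list 9 of 11 members were higher in the first than in the second 6 h library, and over all genes 1691 were. The tubulins, with 8 of 9 lower and a median of -0.65, had that order in 8 members. The median of the glycolysis list lay between -0.80 and -0.33 over the alternatives, and that of the tubulins between -0.89 and -0.35.

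The Pgk1 promoter is shown for its hypoxia response core, searched as ACGTGC.
Pgk1 promoter, chrX:106186850-106187149, plus strand: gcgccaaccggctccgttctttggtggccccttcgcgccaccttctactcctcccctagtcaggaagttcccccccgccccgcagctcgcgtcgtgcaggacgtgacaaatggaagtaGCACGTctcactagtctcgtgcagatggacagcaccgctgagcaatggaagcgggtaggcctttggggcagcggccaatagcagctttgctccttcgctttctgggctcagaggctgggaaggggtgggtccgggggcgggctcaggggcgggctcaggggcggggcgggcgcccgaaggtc
The core stood in 5 of 9 glycolysis windows (55.6%) against 5.92% of all promoters and 8.57% of those of tested genes.

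Respiratory chain genes encoded in the nucleus were split, with 42 higher and 35 lower of 77 tested, 15 higher and 16 lower without overlap, and a median of 0.0068. Of the 13 encoded in mitochondria, 11 were higher, 7 of them without overlap, 2 were lower, both without overlap, and the median was 0.19. mt-Co1, a subunit of complex IV, was at 4561 and 4878 RPKM at 6 h and 7358 and 7502 at 24 h, a log2 change of 0.65 ± 0.23 (SE, adjusted p = 0.787 by edgeR). mt-Rnr1, the small mitochondrial ribosomal RNA, was at 1538 and 2233 RPKM at 6 h and 4200 and 3801 at 24 h and passed in the 8-library fit. These genes moved with the share of mitochondrial counts given above, whose part in them was not tested.

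**Figure D5:**
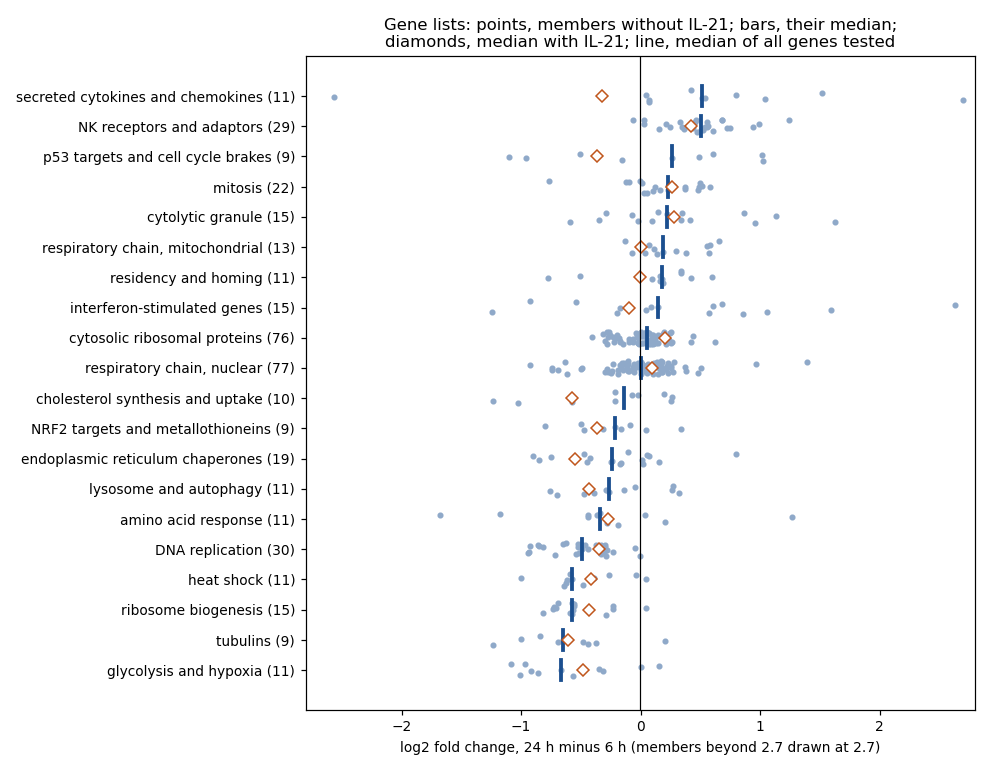
Rows are gene lists with at least 9 tested members, that number in brackets, ordered by median. Points are the log2 changes of members (24 h minus 6 h without IL-21), with those beyond the axis drawn at its edge, bars their median, diamonds the median with IL-21, and the vertical line the median of all genes. NK receptors stood at 0.51, and glycolysis and hypoxia genes at -0.67.

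Interferon-stimulated genes divided, with 10 higher and 5 lower of 15 tested, a median of 0.14, and 7 higher and 4 lower without overlap. The median lay between 0.099 and 0.50 over the alternatives. The Ifitm genes encode membrane proteins that hold back virus entry, and they are close copies, so their values are uncertain. Ifitm1 was at 32.4 and 44.7 RPKM at 6 h and 186 and 291 at 24 h, a log2 change of 2.63 ± 0.72 (SE), and passed in the 8-library fit (adjusted p = 0.0015). Ifitm2 stood at 93.3 and 80.2 RPKM at 6 h and 177 and 184 at 24 h, and Ifitm3 at 23 and 25.8 and then 67.7 and 79.5. Both passed in that fit as well, with adjusted p-values of 0.0117 and 0.00951. Usp18, which takes ISG15 off proteins, was at 7.28 and 6.65 RPKM at 6 h and 3.17 and 2.72 at 24 h, lower in both, and also passed. It was tested because of its 6 h level with IL-21. The 72 h libraries stood far apart for Ifitm1, at 22.6 and 178 RPKM.

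In the IL-15 receptor and signal chain 6 of 14 genes were tested and 4 were higher, 3 of them without overlap. The median of this list lay between -0.22 and 0.31 over the alternatives. Jak1 stood at 35.5 and 28 RPKM at 6 h and 51 and 41.8 at 24 h, and Il2rg, the common gamma chain, at 381 and 283 and then 396 and 409.9. Both were higher in both 24 h libraries, Il2rg by a narrow margin (adjusted p = 0.998 by edgeR), and Il2rb, the beta chain, overlapped. Of the STAT5 response genes 2 of 7 were higher and 5 lower, 2 and 2 without overlap, and Bcl2, which blocks cell death, was at 11.1 and 13.4 RPKM at 6 h and 18.2 and 16.1 at 24 h (adjusted p = 0.813 by edgeR). Of 6 NK transcription factors tested, Tcf7 did not overlap, with 6.11 and 7.83 RPKM at 6 h and 12.4 and 9.57 at 24 h. Id2, which NK cells need to form, was at 2336 and 2742 RPKM at 6 h and 3241 and 2528 at 24 h and overlapped. Residency and homing genes were higher in 9 of 11, but without overlap in only 3, a share near that of all genes, against 1 lower. Their median of 0.18 lay between 0.088 and 0.37 over the alternatives. Among them Ccr2, a receptor for monocyte chemokines, was at 187 and 198 RPKM at 6 h and 282 and 234 at 24 h, and Cd69, which holds cells in tissue, was lower, at 42.3 and 35.3 and then 29.6 and 25.2.

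The amino acid response had 11 of 31 genes tested, with 8 lower, 4 of them without overlap, and a median of -0.34. Ddit3 (CHOP), a stress-induced transcription factor of this list, lay on the other side, at 12.9 and 16 RPKM at 6 h and 32.6 and 36.7 at 24 h, and its log2 change of 1.26 passed in the 8-library fit (adjusted p = 0.034). Of the cholesterol synthesis and uptake genes 7 of 10 were lower, 3 of them without overlap, a share near that of all genes. In this list 1 gene was higher without overlap. Insig1, which holds the sterol sensor in the endoplasmic reticulum, was at 5.26 and 5.43 RPKM at 6 h and 2.99 and 2.26 at 24 h. Cyp51, which removes a methyl group from lanosterol, was at 7.38 and 9.68 RPKM at 6 h and 4.26 and 2.99 at 24 h and passed as lower in the 8-library fit (adjusted p = 0.0413). It exceeded the filter only in the cultures with IL-21. Lysosome and autophagy genes were lower in 8 of 11 and NRF2 targets in 7 of 9, with 3 and 3 lower without overlap, shares near or somewhat above that of all genes. In 10 of the 11 lysosome genes the first 6 h library was above the second. Of 9 p53 targets and cell cycle brakes 5 were higher and 4 lower, 5 and 3 without overlap. Gadd45g, a stress-induced gene of growth arrest, was at 62.2 and 69 RPKM at 6 h and 40.1 and 21.1 at 24 h, lower in both, and passed in the 8-library fit (adjusted p = 0.0361). Cdkn2c, an inhibitor of CDK4 and CDK6, was at 19.6 and 25.6 RPKM at 6 h and 37 and 31.9 at 24 h, without overlap, and was not called in either fit. Immediate early genes, NF-kB, TGF-beta, glucocorticoid response and fatty acid synthesis had 3 or fewer tested members each, the TNF family had 6 and the BCL2 family 7, with no member called in the 16-library fit, and no cholesterol efflux gene was tested. Bcl3, an NF-kB cofactor, had 35 and 82 counts at 6 h and 0 and 2 at 24 h, and passed as lower in the 8-library fit (adjusted p = 0.0204). It was tested because of its 6 h level with IL-21.

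Further genes that were over 2-fold higher without overlap and had the smallest p-values were Ifi209, Sat1, Zfp512 and Plac8. Sat1, which acetylates polyamines for export, was at 188 and 255 RPKM at 6 h and 468 and 480.3 at 24 h (log2 change 1.10 ± 0.23, SE, adjusted p = 0.331 by edgeR). Plac8 was at 98.4 and 174 RPKM at 6 h and 292 and 354 at 24 h, and its 0 h level of 210.1 and 218 lay above both 6 h libraries. Ifi209, an interferon-inducible gene of the PYHIN family, was at 31.7 and 23.7 RPKM at 6 h and 56.8 and 59.4 at 24 h. All of them passed in the 8-library fit, Zfp512 with an adjusted p of 0.0331 by edgeR. Of the times compared, Zfp512 exceeded the filter only at 24 h, where it was higher, so its p-value is no support for the rise.

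On the lower side the smallest p-values belonged to Ppid, Bzw2, Nup43, Sh2d2a and Hist1h2bk, with adjusted p-values between 0.422 and 0.626. Ppid, a cyclophilin that binds HSP90, was at 23.5 and 24.5 RPKM at 6 h and 9.93 and 12.9 at 24 h, a log2 change of -1.07 ± 0.25 (SE). Sh2d2a, the T cell specific adaptor, was at 17.6 and 13.2 RPKM at 6 h and 5.43 and 7.92 at 24 h. These 5 genes were lower at 24 h in both libraries and passed in the 8-library fit. Bzw2 was tested because of its 6 h level with IL-21. Of the times compared, Sh2d2a and Hist1h2bk exceeded the filter only at 6 h, so their p-values are no support for the fall. Hist1h2bk is 1 of many near-identical histone genes and its value is uncertain. Bnip2 and Psmd12 also passed in the 8-library fit, whereas Hist1h3a, Nudc, Utp18 and Gtf2f1 were over 2-fold lower and did not. Bnip2 too exceeded the filter only at 6 h of the times compared. The 8-library fit also held Srm (spermidine synthase), at 56 and 32.8 RPKM at 6 h and 16.6 and 21.7 at 24 h, and Eif5a, the translation factor modified with spermidine, at 665 and 444 and then 226 and 273. Tfrc, the transferrin receptor, was at 10.1 and 7.36 RPKM at 6 h and 2.87 and 3.01 at 24 h. In these genes both 24 h libraries were below both 6 h libraries.

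The cultures with IL-21 gave the same interval in other libraries. There 1 gene was called across all 16 libraries, Gzmc, at 1528 and 1654 RPKM at 6 h and 8650 and 7516 at 24 h. Of the 29 genes that were higher in the 8-library fit without IL-21, 20 had the same sign with IL-21, and of the 33 lower ones 26 did. Among the lower genes Bcl3, Bzw2, Ppif, Rad18, Usb1, Usp18 and Wdr18 exceeded the filter only at 6 h with IL-21. That level enters their change with IL-21, so a fall there was favoured in advance. The count of 26 is therefore a description and no support. Over all genes tested the sign was the same for 68.9%, close to the share among the higher genes. Across genes, which are not independent replicates, Pearson's r between the log2 changes without and with IL-21 was 0.44 and Spearman's rho 0.51, as a description. The list medians with IL-21 were 0.43 for NK receptors, -0.34 for DNA replication, -0.43 for ribosome biogenesis, -0.41 for heat shock and -0.48 for glycolysis and hypoxia, each with the sign found without IL-21. Of 31 lists 7 had a median of the other sign with IL-21. It was -0.32 for cytokines and chemokines, -0.37 for p53 targets and cell cycle brakes, -0.094 for interferon-stimulated genes, -0.093 for the TNF family, -0.0074 for residency and homing and -0.24 for the genes taken from the study's text, and the glucocorticoid list had 1 tested member. The difference between the list medians was not tested.

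The difference between the changes without and with IL-21 was tested directly. No gene passed with all 16 libraries by edgeR, with 69 at an unadjusted p under 0.05, and DESeq2 called 2 and limma 0. With the 8 libraries at 6 h and 24 h, Gpr18, Ccl5 and Cd7 passed with a log2 change that was higher without IL-21, and Tfrc with one that was lower. Muc1 passed too, but it was tested only because of its 6 h level with IL-21, which also enters that difference, so its p-value is no support for it. Ccl5 with IL-21 was at 476 and 538 RPKM at 6 h and 307 and 296 at 24 h, lower at 24 h, and the difference of the log2 changes was 1.77 ± 0.20 (SE, adjusted p = 0.00464 by edgeR).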

How the data were processed

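Per the labels, RNA of sorted and cultured trNK-V cells was amplified with a single-cell full-length kit and made into transposase libraries. The authors deposited whole-number counts per gene. The submitters' processing notes list HISAT2 2.1.0, featureCounts and the mm10 build, whereas the study's methods name RSEM. How reads shared by near-identical genes were counted is not given in the sources used here. The 16 time-course libraries (28541369 to 66468883 counts, 8 groups of 2) were fitted together with edgeR 4.0.16 in R 4.3.3 (TMM, quasi-likelihood test, Benjamini-Hochberg). Tested genes had an RPKM above 10 in every library of at least 1 group, and a call needed an adjusted p under 0.05 and over 2-fold. Standard errors came from the F statistic. Alternatives were DESeq2 1.42.0, limma 3.58.1, other scalings, filters and subsets of libraries, and each left-out library. The functions were tested on simulated data. The other files of the series were not used here.

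The members and the 32 pathway and 11 marker lists were chosen with earlier results of these data known. The genes to name were the 12 largest changes in each direction among called genes without overlap, filled up to 12 with uncalled genes over 2-fold by p, the 2 members of smallest p in each list (more where more were called), and a list of genes from the study's text. Predicted genes were counted without being named. Promoter windows came from RefSeq (GRCm38.p6, the build of the files) and matched 2520 of the genes tested. Libraries of a pair differed by more than sampling noise in every group.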

Additional observations from a re-analysis of the deposited data

Results flagged for a closer look

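With the 8 libraries at 6 h and 24 h, the change from 6 h to 24 h differed between cultures without and with IL-21 for 5 genes by the test of the difference itself (edgeR). The log2 change without minus with IL-21 was 3.13 for Muc1, 1.69 for Gpr18, 1.77 for Ccl5, 1.17 for Cd7 and -2.13 for Tfrc, with adjusted p-values of 0.0324, 0.0342, 0.00464, 0.0342 and 0.0342. With all 16 libraries none of them passed, at an adjusted p of 0.9999 each. Muc1, Gpr18 and Ccl5 were higher at 24 h without IL-21 and lower with it, in both libraries of each group. Gpr18 was at 47.7 and 34.1 RPKM at 6 h and 78.9 and 93.8 at 24 h without IL-21, and at 125 and 139 and then 89.1 and 80.9 with it. Muc1 was low without IL-21, at 0.604 and 0.838 RPKM at 6 h and 2.11 and 2.13 at 24 h, and stood at 21.3 and 19.5 and then 6.99 and 6.51 with it. It exceeded the filter of 10 RPKM only in the 6 h group with IL-21, which is 1 of the groups that set the difference, so its value is a description and its p-value no support. Tfrc exceeded the filter, which was set before TMM scaling, at 0 h without IL-21 and at 6 h and 24 h with it. Tfrc was at 8.9 and 11 RPKM at 6 h and 13 and 15.9 at 24 h with IL-21, the direction opposite to that without it. Cd7 was higher at 24 h in both cultures.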

How the results depend on the processing

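For 24 h against 6 h without IL-21, the calls (higher and lower) were 11 and 2 with only the libraries compared, 29 and 33 with the 8 libraries at 6 h and 24 h, 10 and 3 with DESeq2, 6 and 8 with no filter, and 0 higher both with the 8 libraries without IL-21 and with filterByExpr, against 3 and 0. With IL-21 they were 111 and 44 with only the libraries compared, 75 and 21 with the 8 libraries, 35 and 9 with the 12 libraries up to 24 h, 31 and 7 with DESeq2 and 14 and 3 with no filter, against 1 and 0. For the difference they were 4 and 1 with only the libraries compared, 2 and 0 with DESeq2 and 3 and 1 with no filter, against 0 and 0. Leaving out a library gave 0 higher without and 0 with IL-21. In the 8-library fit it gave 28 and 15 without the 6 h replicate 1, 55 and 115 without the 6 h replicate 2, 22 and 26 without the 24 h replicate 1, and 7 and 10 without the 24 h replicate 2. RLE and upper quartile scaling, limma, an RPKM above 1 and no fold threshold kept each count within 1.5 times. With the replicate number as a block the counts were 3 and 0 without IL-21, 1 and 0 with IL-21 and 0 and 0 for the difference. Deviations of same-numbered libraries correlated at -0.05 without and -0.25 with IL-21, which cannot tell whether the numbers pair the samples. The crossed pairing gave 1 and 0 with IL-21. The cause of these shifts was not tested.

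Of 123 genes with a value under each alternative, 118 kept their sign. Nfkbia, Id2, Prf1, Tnfrsf9 and Spp1, which did not, overlapped between the times. Genes named for a call or for libraries without overlap could hardly reverse, so the count is no measure of robustness. With no filter Nfkbia came to -0.0195 and Spp1 to -0.0232. On leaving out a library the log2 change ranged over -0.488 to 0.882 for Nfkbia, -0.0066 to 0.334 for Id2, -0.559 to 0.035 for Prf1, -0.0495 to 0.444 for Tnfrsf9 and -0.0403 to 0.112 for Spp1, and in the 8-library fit over -0.478 to 0.882, 0.000921 to 0.355, -0.549 to 0.0357, -0.0398 to 0.444 and -0.0326 to 0.133. Of 31 list medians 20 kept their sign, with NK receptors between 0.40 and 0.60 and DNA replication between -0.57 and -0.38. The range was wider for lysosome and autophagy genes (between -0.45 and -0.0011), NRF2 targets (-0.40 and -0.068) and cholesterol genes (-0.29 and -0.032). It was also wider for the amino acid response (-0.58 and -0.25), p53 targets (0.10 and 0.35) and mitochondrial respiratory chain genes (0.12 and 0.40). It crossed 0 for nuclear respiratory chain genes (-0.11 and 0.16) and cytosolic ribosomal proteins (-0.13 and 0.26). Among other lists it also crossed 0 for the IL-15 receptor and signal chain (-0.22 and 0.31). The same held for STAT5 response genes (-0.41 and 0.18) and NK transcription factors (-0.16 and 0.18). With 2 libraries a group, the spread of each gene rests mostly on the estimate shared over the groups.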

Other observations

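Some genes of the 8-library fit, picked after their values were seen, are given here with their levels at 0 h and 72 h without IL-21. Srm, lower at 24 h in that fit, was at 66.9 and 47.3 RPKM at 0 h and 8.59 and 0 at 72 h, and Sat1, higher at 24 h, was at 204 and 236 RPKM at 0 h and 686 and 741 at 72 h. Gzmd, at 46.7 and 52.4 RPKM at 6 h and 170.5 and 136 at 24 h, was at 95.7 and 96.4 at 0 h and 0 and 0.475 at 72 h. Fabp5, Wdr55 and Ints11, all lower at 24 h in that fit, had no count in either 72 h library without IL-21. Those 72 h libraries detected fewer genes, 10728 and 11671, against 14793 and 14669 at 6 h and 13345 and 14236 at 24 h. Mitochondrial transcripts made up 8.44% and 11.8% of their counts. The part of this in the missing counts was not tested.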
